A study of Saccharomyces cerevisiae with 4 samples.

Results

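Genes of amino acid and methionine biosynthesis were followed in a hog1 mutant of Saccharomyces cerevisiae, altered in the gene of Hog1, a MAP kinase that answers high osmolarity, after its cell wall had been digested with Zymolyase. The genes were taken by symbol: the prefixes ARG, HIS, LEU, LYS, ILV, TRP, ARO, SER, HOM, THR, MET, CYS, CPA, ASN or SAM followed by a number, and ARG5,6. This gave 94 of the 6207 yeast rows of the array table, in 15 prefixes. The rule reads symbols alone, but the set was chosen with earlier results of these data known. The symbol is not a guarantee of function: SAM35, SAM37 and SAM50 belong to the sorting and assembly machinery of the mitochondrial outer membrane, MET18 acts in iron-sulfur protein assembly, MET7 in folate metabolism, ARG82 makes inositol polyphosphates and LEU5 acts in mitochondrial transport.

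Both groups carried the hog1 mutation and were grown in YEPD, a rich medium, at 24 °C; at the division of a culture 1 part received Zymolyase 100T, a preparation that digests the beta-1,3-glucan of the wall, at 5 units/ml, and the other part grew on untreated, with RNA taken at 3 h. Total RNA of 2 cultures was hybridised to 4 two-colour arrays with dye swaps, the treated RNA in Cy3 on arrays 1 and 3 and in Cy5 on arrays 2 and 4. The labels give neither the strain background, nor the nature of the hog1 allele, nor which arrays shared a culture, and no wild-type array was analysed here. HOG1 had no value on any array, so the mutation could not be checked. Every value below is a log2 ratio, with arrays 2 and 4 multiplied by −1, so that each reads Zymolyase over untreated. No label names the numerator, so that direction is likely rather than known: the linear ratios behind the 4 columns share 1 numerator, and mating genes that are nearly silent in unstimulated cells lie far above 0 in this reading. With the opposite numerator every sign below would turn.

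In yeast, a shortage of amino acids or uncharged tRNA activates the kinase Gcn2, which favours translation of the activator Gcn4, and Gcn4 raises transcription of enzymes in most amino acid routes at once (general amino acid control). The sulfur route has its own switch: Met4, helped by Cbf1, Met28, Met31 and Met32, activates the MET genes, and the ubiquitin ligase subunit Met30 keeps Met4 in check while methionine and cysteine are plentiful. Single routes also have regulators of their own, such as Leu3 for leucine, Lys14 for lysine, Arg80 and Arg81 for arginine, and Aro80 for breakdown of aromatic amino acids. A rich medium supplies amino acids from outside, so synthesis is not forced on the cell.

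Of the 94 genes, 60 had a value on all 4 arrays (63.8%, against 43.7% of all yeast rows), 14 had 3 values, 12 had 1 or 2 values and 8 had none. Array 1 was the main source of blanks: all 14 genes with 3 values lacked array 1 alone, and all 10 genes with 2 values had them on arrays 3 and 4. Coverage was complete for the HIS (7 of 7), ILV (5 of 5), TRP (5 of 5), SER (4 of 4) and HOM (3 of 3) genes. It was poor for the ARG genes, with 2 of 10 on all 4 arrays, and for the MET genes, with 8 of 20. The 8 genes without a value were ARG3, ARG7, ARG81, LEU5, MET1, MET2, MET17 and MET32. MET2 and MET17 make homocysteine from homoserine and sulfide, so that step of the sulfur route has no measurement here. HIS3, LEU2, LYS2 and TRP1, which laboratory strains often lack as markers, had values on all 4 arrays, and their ratios do not show which alleles the strain carried.

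No gene of the set passed the test. The 60 genes with 4 values were tested with all 2715 such rows, by limma on 2 culture means with the arrays paired in each of the 2 possible ways, keeping the larger p (Benjamini-Hochberg adjusted p under 0.05). Of the 60, 0 were called, against 2.21% of all tested rows. At an unadjusted p under 0.05 there were 8, of which 4 had means above 0 and 4 below. Of all tested rows 14.7% were under this p, 8.14% with means above 0 and 6.59% below. The 8 were MET6, ARG4, CYS3 and THR1 above 0, and MET31, TRP1, HIS6 and LYS9 below 0. The largest mean was 0.77 (MET6) and the lowest −0.42 (TRP1), so no mean reached 2-fold. The 95% limma interval lay within 2-fold on both sides of 0 for 58 of the 60 genes, the exceptions being MET6 and ARG4. The fit shared variance between genes, so this count is not a measure of each gene's own spread. ARO7, with an SD of 0.58 over arrays, and THR4, with 0.13, had the same standard error, 0.156. A p above the threshold does not show that a transcript stayed at its level.

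**Figure D1:**
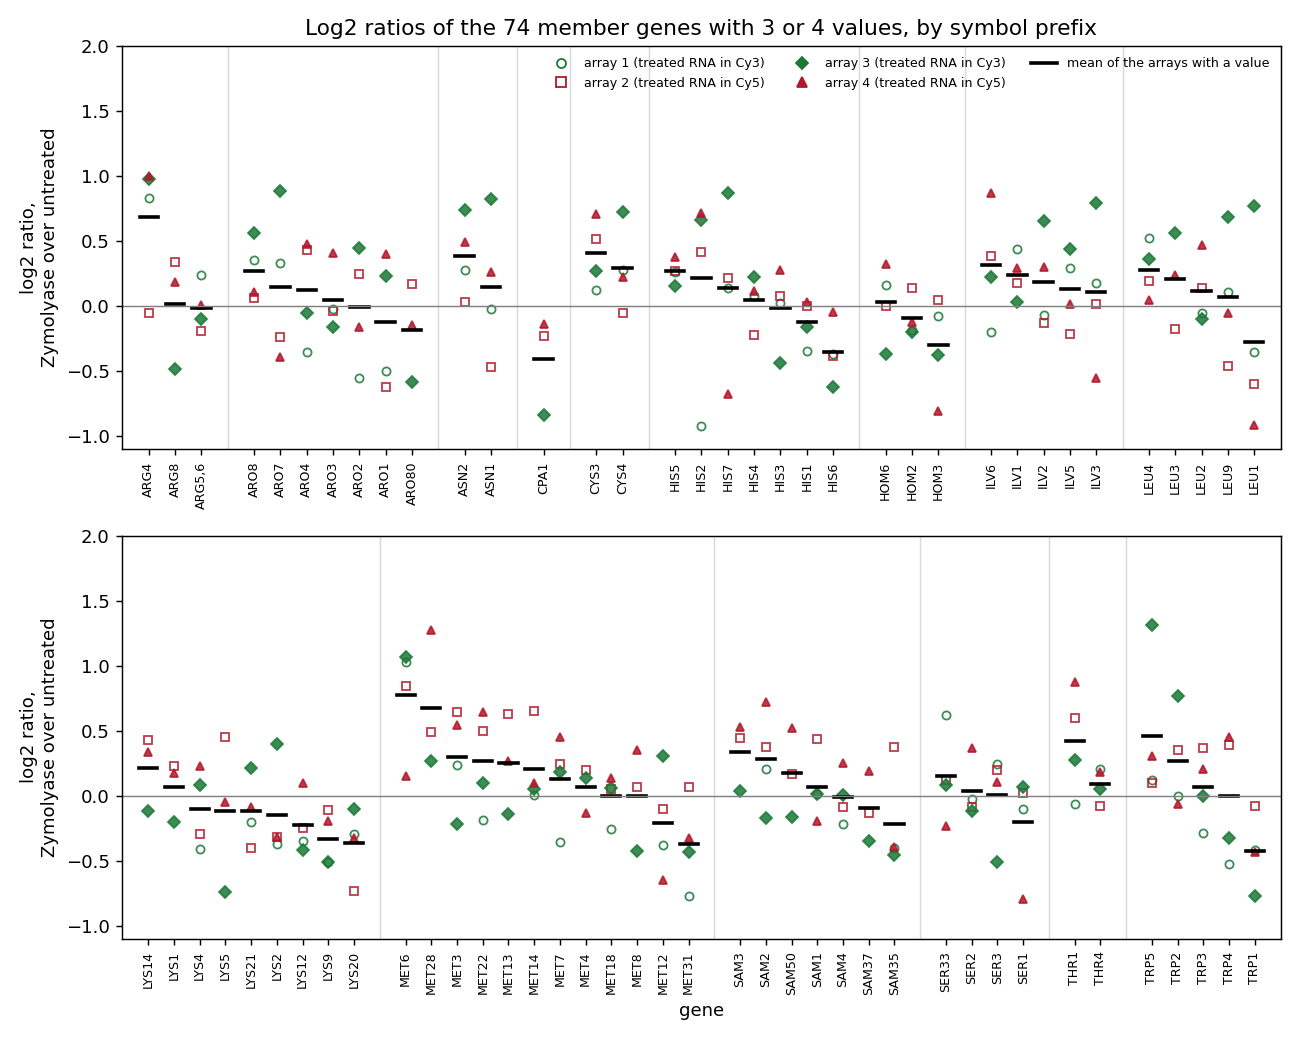
Log2 ratio of Zymolyase over untreated (vertical axis) for each of the 74 genes with 3 or 4 values (horizontal axis), grouped by symbol prefix; each marker is 1 array, green where the treated RNA carried Cy3 and red where it carried Cy5, and the black bar is the mean. MET6 has the highest mean, 0.77, and TRP1 the lowest, −0.42, and most genes have values on both sides of 0.

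The set as a whole sat slightly above the other genes. The median of the 60 means was 0.07, against −0.05 over all 2715 tested rows, and 37 of the 60 means lay above 0 (61.7%, against 40.6% of all tested rows). The median over the set exceeded that over all tested rows on each array, by 0.018, 0.078, 0.14 and 0.17 on arrays 1 to 4, a mean difference of 0.10 ± 0.07 (SD, n = 4 arrays). Sign agreement between arrays was no better than elsewhere: 13 of the 60 genes had 1 sign on all 4 arrays (9 above 0, 4 below), or 21.7%, against 25.1% of all tested rows (9.83% above 0 and 15.2% below). A mean of at least 0.5 in size with 1 sign throughout was seen for 1 gene, MET6, against 5.89% of all tested rows. The spread of the 60 means, as a scaled median absolute deviation, was 0.26, against 0.23 over all tested rows, and the median SD between arrays was 0.33, against 0.29.

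Across the 60 genes, arrays of the same dye orientation agreed better than arrays of opposite orientation. Arrays of the same dye orientation correlated with Pearson r of 0.39 (arrays 1 and 3) and 0.37 (arrays 2 and 4). Arrays of opposite orientation gave 0.19 for arrays 1 and 2, 0.16 for arrays 1 and 4, −0.03 for arrays 2 and 3 and 0.05 for arrays 3 and 4. Over all 2715 tested rows Pearson r did not separate the orientations, with 0.54 and 0.69 for the same and 0.24 to 0.57 for the opposite orientation. By Spearman's rho the 60 genes gave 0.35 and 0.38 for the same and −0.06 to 0.16 for the opposite orientation, and all rows 0.36 and 0.43 against −0.0023 to 0.18. These are descriptions over genes that share the arrays and their dyes, and genes are not independent replicates. The sign of the Cy3-treated mean and of the Cy5-treated mean agreed for 31 of the 60 genes (51.7%, against 55.0% of all tested rows). The gap between the orientations had a median size of 0.35 in the set, against 0.28 over all tested rows, and so exceeded the median size of the means, 0.17. Arrays 1 to 4 held the highest value for 6, 10, 21 and 23 of the 60 genes, against 23.0%, 25.3%, 28.9% and 22.8% of all tested rows; arrays 3 and 4 carry opposite dyes.

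**Figure D2:**
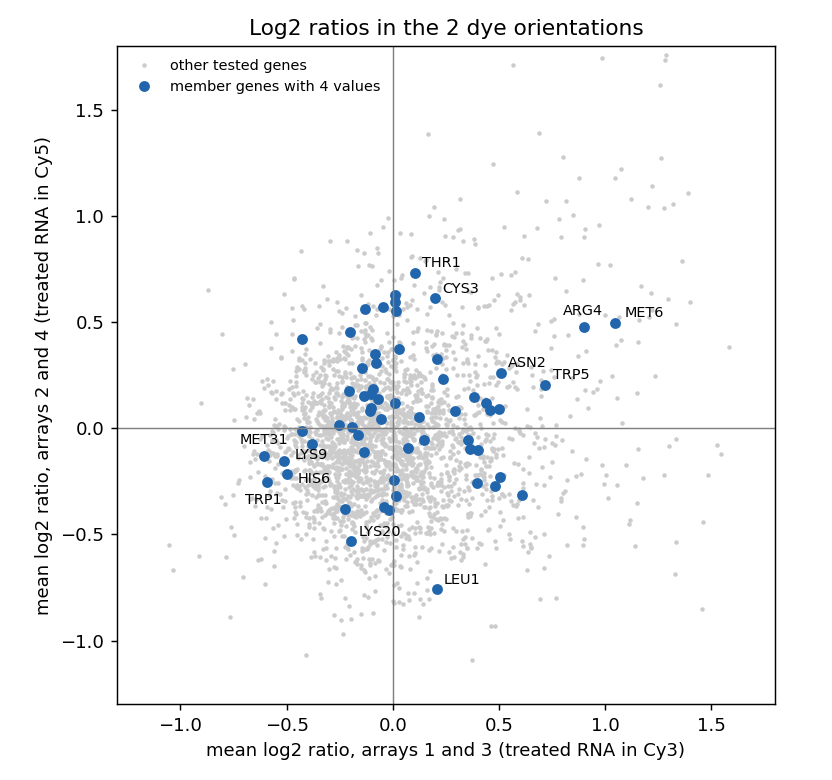
Mean log2 ratio of arrays 1 and 3, with treated RNA in Cy3 (horizontal axis), against that of arrays 2 and 4, with treated RNA in Cy5 (vertical axis); blue points are the 60 genes of the set with 4 values and grey points the other tested genes, with 57 of the 2715 outside the axes. MET6 and ARG4 lie above 0 in both orientations, TRP1, HIS6, LYS9 and LYS20 below 0 in both, and LEU1 has opposite signs.

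MET6, the methionine synthase that methylates homocysteine, had log2 ratios of 1.03, 0.84, 1.06 and 0.15 on arrays 1 to 4. It stood above 0 on every array, near 2-fold on 3 of them and close to 0 on array 4. Its mean was 0.77 ± 0.43 (SD, n = 4 arrays), 1.71-fold, with a limma 95% interval of 0.40 to 1.15 and an adjusted p of 0.0972. By the size of its mean MET6 ranked 101st of the 2715 tested rows. MET6 was called with an adjusted p of 2.24e-05 when arrays 1 and 4, and 3 and 2, were taken as the dye-swap pairs, a setting that called 10.2% of all tested rows. In that setting the intervals of MET6, ARG4, TRP5, CYS3, THR1 and LEU1 had the same width. The p there thus follows the size of the mean, with a variance shared between genes and not the gene's own. MET6 was called with 0.0229 when the 4 arrays were fitted with a dye term, which called 4.38%. That fit counted the 4 arrays as separate replicates, though they came from 2 cultures. With a mean of 1.05 on arrays 1 and 3 alone MET6 had an adjusted p of 0.00746, where 5.19% of rows were called. With a mean of 0.50 on arrays 2 and 4 alone MET6 had 0.268. MET6 thus had the same direction in both orientations, and its call depends on which arrays came from 1 culture.

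The entry to the sulfur route leaned above 0 without a call. MET3, the ATP sulfurylase that activates sulfate, had 0.23, 0.65, −0.22 and 0.54 on arrays 1 to 4, a mean of 0.30 ± 0.39. MET14, the kinase of the next step, had 0.0023, 0.65, 0.053 and 0.10, above 0 on every array but well above it on array 2 alone. MET16, which reduces the activated sulfate, had −0.11 and 0.60 on arrays 3 and 4. MET5 and MET10, the subunits of sulfite reductase, had 0.16 and 0.19, and 0.021 and 0.24, on the same arrays. MET8, which helps make the sirohaem of that enzyme, had 0.065, −0.43 and 0.35 on arrays 2 to 4. The Cy5-treated arrays read higher than the Cy3-treated arrays for MET3 (0.59 against 0.0090) and for MET14 (0.38 against 0.028). Over the 8 MET genes with 4 values the median was 0.36 on the Cy5-treated and −0.04 on the Cy3-treated arrays. Of the entry genes named above, these 8 hold MET3 and MET14 alone.

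The enzymes that turn homocysteine into cysteine both had means above 0. CYS3, cystathionine gamma-lyase, had 0.12, 0.52, 0.27 and 0.71 on arrays 1 to 4, each above 0, with a mean of 0.41 ± 0.26, a 95% interval of 0.065 to 0.75 and an adjusted p of 0.292. CYS4, cystathionine beta-synthase, had 0.28, −0.0504, 0.72 and 0.23, a mean of 0.29 ± 0.32. Their dye orientations went opposite ways: CYS3 had 0.20 on the Cy3-treated and 0.61 on the Cy5-treated arrays, and CYS4 0.50 and 0.088.

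In the methionine cycle no other gene approached MET6. SAM1 and SAM2 encode the S-adenosylmethionine synthetases and are close paralogues, so their labelled cDNA may be shared between rows. SAM2 had 0.20, 0.38, −0.18 and 0.72, a mean of 0.28 ± 0.37, and SAM1 a mean of 0.07 ± 0.26. SAH1, which cleaves S-adenosylhomocysteine to homocysteine, had a mean of −0.17 ± 0.35. MET13 and MET12, the methylenetetrahydrofolate reductases, had means of 0.25 ± 0.39 (n = 3 arrays) and −0.21 ± 0.41. SAM4, which makes methionine from homocysteine and S-adenosylmethionine, had a mean of −0.01 ± 0.20. Among permeases, SAM3, which takes up S-adenosylmethionine, had 0.45, 0.038 and 0.53 on arrays 2 to 4. MUP1, the high-affinity methionine permease, had 0.59, 0.21, 0.68 and −0.19, a mean of 0.32 ± 0.40, lowest on array 4, as was MET6.

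**Figure D3:**
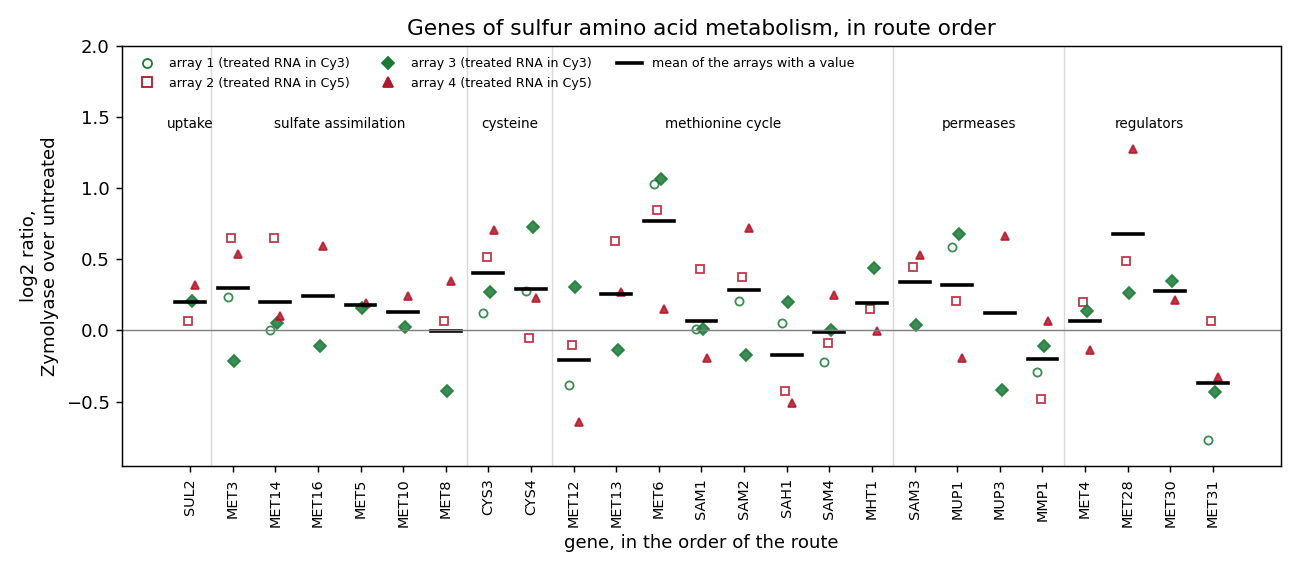
Log2 ratio of Zymolyase over untreated (vertical axis) for genes of sulfate uptake and assimilation, cysteine synthesis, the methionine cycle, permeases and regulators (horizontal axis, in route order); each marker is 1 array, green for treated RNA in Cy3 and red for Cy5, and the black bar is the mean of the arrays with a value. MET6, with a mean of 0.77, and MET28, with 0.68, stand above the other genes, and MET31 is the lowest, with −0.37.

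The regulators of the sulfur route did not move in 1 direction. MET28, a bZIP partner of Met4, had 0.49, 0.26 and 1.28 on arrays 2 to 4, all above 0, a mean of 0.68 ± 0.53 (n = 3 arrays). Of the 14 genes with 3 values, MET28 and SAM3 were above 0 on all 3 arrays, 14.3%, against 11.4% of all rows that lacked array 1 alone. MET28 was not called in a fit of all rows with 3 or 4 values, where 1 culture mean was a single array; 0 of the 74 genes were called there, against 1.52% of the rows in that fit. MET31, a zinc finger protein that brings Met4 to promoters, had −0.77, 0.063, −0.44 and −0.33, a mean of −0.37 ± 0.35, a 95% interval of −0.70 to −0.04 and an adjusted p of 0.301. MET4 itself had 0.20, 0.13 and −0.14 on arrays 2 to 4. MET30 had 0.35 and 0.21 on arrays 3 and 4.

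The ARG genes were too sparsely measured to describe the arginine route as a whole. ARG4, argininosuccinate lyase, which releases arginine in the last step, had 0.83, −0.0504, 0.98 and 1.00 on arrays 1 to 4. It was close to 2-fold on 3 arrays and at 0 on array 2, with a mean of 0.69 ± 0.50, 1.61-fold, a 95% interval of 0.22 to 1.16 and an adjusted p of 0.224. ARG4 was called with arrays 1 and 4, and 3 and 2, as pairs (adjusted p = 0.000245), with the variance shared between genes as for MET6. It was also called on arrays 1 and 3 without the others (mean 0.90, adjusted p = 0.0205). ARG5,6, which encodes acetylglutamate kinase and the reductase after it, had a mean of −0.01 ± 0.19, and ARG8, the acetylornithine aminotransferase, had 0.34, −0.48 and 0.19 on arrays 2 to 4. ARG1, argininosuccinate synthase, the step before ARG4, had a single value, −0.31 on array 3, where ARG4 had 0.98. CPA1, of carbamoyl phosphate synthesis, had −0.23, −0.84 and −0.14 on arrays 2 to 4, all below 0. The regulator ARG80 had 0.84 and 0.45 on arrays 3 and 4.

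Of the 14 prefixes with a gene on all 4 arrays, 6 had medians of the same sign in both dye orientations (ARG, ASN, CYS, ILV, LYS and THR). The ARG, ASN, CYS and THR medians rest on 2 genes each, and ARG5,6 and ASN1 changed sign between the orientations. Among the prefixes LYS alone had a median below 0 on each array. The median of all tested rows was also below 0 on each array, at −0.059, −0.029, −0.057 and −0.046. On array 3 the LYS median lay above that of all tested rows, and on the other arrays below it. All 6 LYS genes with 4 values had means below 0, against 59.4% of all tested rows, with a median of −0.19 and array medians of −0.36, −0.31, −0.0097 and −0.14. The median was −0.18 on the Cy3-treated and −0.20 on the Cy5-treated arrays. LYS20, a homocitrate synthase at the entry to the route, had −0.29, −0.73, −0.10 and −0.33, all below 0, a mean of −0.36 ± 0.27. LYS9, a saccharopine dehydrogenase near its end, had −0.51, −0.11, −0.51 and −0.20, also all below 0, a mean of −0.33 ± 0.21. LYS12, homoisocitrate dehydrogenase, had a mean of −0.23 ± 0.23, and LYS2, the aminoadipate reductase, −0.15 ± 0.37. The lowest adjusted p of these was 0.332, for LYS9, so none passed. The LYS genes with 3 values did not all lie below 0: the activator LYS14 had a mean of 0.21 ± 0.29 and LYS1, the last enzyme, 0.065 ± 0.23, while LYS5, which activates Lys2, had −0.12 ± 0.60. With these the LYS median was −0.12.

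**Figure D4:**
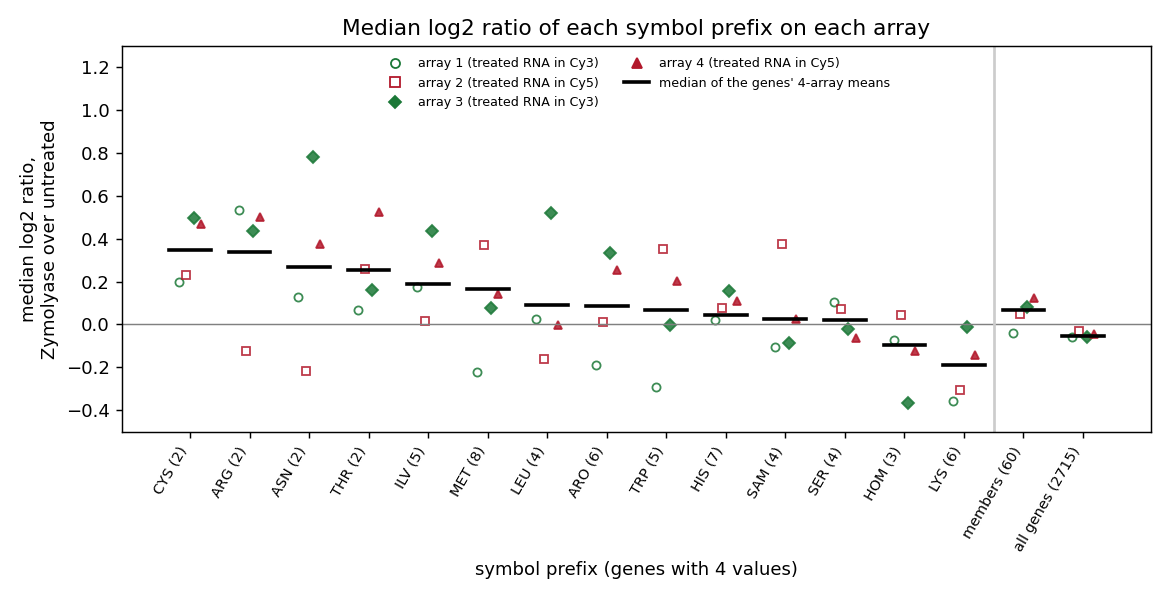
Median log2 ratio of Zymolyase over untreated (vertical axis) on each array for the genes of each symbol prefix with 4 values, the whole set and all tested genes (horizontal axis, with the number of genes); markers are arrays, green for treated RNA in Cy3 and red for Cy5, and the black bar is the median of the genes' 4-array means. The LYS markers all lie below 0, with a median of −0.19, as do those of all tested genes, with −0.05. The CYS, THR, ILV and HIS markers all lie above 0, with medians of 0.35, 0.25, 0.19 and 0.05.

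The isoleucine and valine genes leaned the other way. All 5 ILV genes had means above 0, from 0.11 to 0.32, against 40.6% of all tested rows. The median was 0.19, with array medians of 0.17, 0.016, 0.43 and 0.29. Without array 3 it was 0.032, and ILV1 alone had 1 sign on all 4 arrays. ILV6, the regulatory subunit of acetolactate synthase, had −0.20, 0.38, 0.22 and 0.87, a mean of 0.32 ± 0.44, and ILV2, its catalytic subunit, had 0.19 ± 0.36. ILV1, threonine deaminase, was the steadiest, with 0.44, 0.18, 0.032 and 0.29, a mean of 0.24 ± 0.17. None passed, and the ILV median was 0.29 on the Cy3-treated and 0.082 on the Cy5-treated arrays.

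The median of the leucine genes was highest on array 3, where LEU1 and LEU9 had their highest values. The array medians of the 4 LEU genes with 4 values were 0.028, −0.16, 0.52 and −0.0035 on arrays 1 to 4. The median was 0.30 on the Cy3-treated and −0.07 on the Cy5-treated arrays. LEU1, isopropylmalate isomerase, had −0.36, −0.60, 0.77 and −0.92 on arrays 1 to 4, below 0 on every array but the third, with a mean of −0.28 ± 0.73. LEU1 was called without array 3 (adjusted p = 0.0337), where 4.75% of all tested rows were called. Its mean over arrays 1, 2 and 4 was −0.62. The test was on culture means, 1 of them a single array, with an interval of −1.12 to −0.27. Of these arrays only array 1 was Cy3-treated, so dye was not balanced. The mean of LEU1 was 0.21 on the Cy3-treated and −0.76 on the Cy5-treated arrays. LEU4, the main isopropylmalate synthase, had 0.52, 0.19, 0.36 and 0.048, all above 0, a mean of 0.28 ± 0.21. Its paralogue LEU9 had a mean of 0.07 ± 0.47, and LEU2, the dehydrogenase after LEU1, 0.11 ± 0.26. Unlike the median, LEU2 was lowest on array 3, at −0.10, and highest on array 4, at 0.47. LEU3, the activator of leucine genes, had −0.18, 0.56 and 0.24 on arrays 2 to 4.

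In the aspartate family THR1 had the highest mean and HOM3 the lowest. THR1, homoserine kinase on the branch to threonine, had −0.063, 0.59, 0.27 and 0.87, above 0 on 3 arrays, a mean of 0.42 ± 0.40, a 95% interval of 0.049 to 0.79 and an adjusted p of 0.301. THR4, threonine synthase, had a mean of 0.09 ± 0.13. HOM3, the aspartate kinase that opens the trunk, had −0.074, 0.044, −0.37 and −0.81, a mean of −0.30 ± 0.38. HOM2 had −0.09 ± 0.16 and HOM6, homoserine dehydrogenase, 0.03 ± 0.30. ASN1 and ASN2, paralogous asparagine synthetases, had means of 0.15 ± 0.54 and 0.39 ± 0.30, and ASN2 was above 0 on every array (0.28, 0.031, 0.74 and 0.49).

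Tryptophan genes included the lowest mean of the 60 and the third highest. TRP1, an isomerase of tryptophan synthesis, had −0.41, −0.077, −0.77 and −0.43, all below 0, a mean of −0.42 ± 0.29, a 95% interval of −0.81 to −0.04 and an adjusted p of 0.306. TRP5, tryptophan synthase, had 0.12, 0.10, 1.32 and 0.31, all above 0, a mean of 0.46 ± 0.58. Without array 3 the mean of TRP5 was 0.18. TRP5 was called with arrays 1 and 4, and 3 and 2, as pairs (adjusted p = 0.0344), with the variance shared between genes as for MET6. TRP2, a subunit of anthranilate synthase, had a mean of 0.26 ± 0.38, with 0.0010, 0.35, 0.76 and −0.060. It lies beside MET6 in the RefSeq gene order, the rows of the pair did not overlap, and both were highest on array 3. Array 3 was highest for 21 of the 60 genes. Of the other neighbours in the set, SAM3 and SAM4 were both highest on array 4. HIS7 and ARO4, LYS14 and ARO3, and LEU4 and MET4 were highest on different arrays.

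In the shikimate route to chorismate and beyond, ARO8, an aromatic aminotransferase, had 0.35, 0.065, 0.56 and 0.10, all above 0, a mean of 0.27 ± 0.23. ARO7, chorismate mutase, had 0.33, −0.24, 0.89 and −0.39, above 0 in the Cy3 and below 0 in the Cy5 orientation, a mean of 0.15 ± 0.58. ARO1, the pentafunctional enzyme of the route, had a mean of −0.12 ± 0.52, and ARO3 and ARO4, the paralogous enzymes of its first step, 0.05 ± 0.25 and 0.13 ± 0.40. Genes of aromatic breakdown had fewer values: ARO9 had −0.89 and −0.99 and ARO10 −0.71 and −0.17 on arrays 3 and 4, and their activator ARO80 had 0.17, −0.58 and −0.14 on arrays 2 to 4. ARO9 was the lowest of the 10 genes with 2 values, of which 5 were above 0 on both arrays, 2 below and 3 of both signs. The same shares over all rows with values on arrays 3 and 4 alone were not computed, so these counts cannot be judged.

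HIS6, an isomerase of histidine synthesis, had −0.37, −0.39, −0.63 and −0.046, all below 0, a mean of −0.36 ± 0.24, a 95% interval of −0.69 to −0.03 and an adjusted p of 0.314. HIS5, histidinol-phosphate aminotransferase, had 0.26, 0.27, 0.16 and 0.37, a mean of 0.27 ± 0.09 with an adjusted p of 0.405. HIS2, histidinol-phosphatase, ranged from −0.92 on array 1 to 0.71 on array 4, a mean of 0.22 ± 0.77. The HIS median was 0.05, and 4 of the 7 means lay above 0, so the histidine genes had no common direction. The 4 SER genes of serine synthesis had the prefix median nearest to 0, 0.02. Their means ran from −0.20 (SER1, phosphoserine aminotransferase) to 0.15 (SER33, a phosphoglycerate dehydrogenase). Their arrays still differed, with a median SD between arrays of 0.35, against 0.33 in the set and 0.29 over all tested rows.

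Of 6 pairs of paralogues, LYS20 and LYS21 alone kept 1 order on all 4 arrays. The share of other pairs of rows that do so was not computed, so 1 of 6 cannot be judged. Of single rows, 25.1% of all tested kept 1 sign on the 4 arrays. LYS20 read below LYS21 by 0.25 ± 0.11 on the log2 scale (SD, n = 4 arrays). The differences of the other pairs were smaller than their SD or changed sign between arrays: −0.22 ± 0.49 for SAM1 minus SAM2, −0.24 ± 0.24 for ASN1 minus ASN2, −0.14 ± 0.42 for SER3 minus SER33, 0.21 ± 0.42 for LEU4 minus LEU9 and −0.08 ± 0.32 for ARO3 minus ARO4. Rows of paralogues can share labelled cDNA, which would make the members of a pair read more alike.

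Regulators and enzymes outside the symbol rule gave no called gene either. GCN4 had 0.13, 0.50, −0.82 and 0.30, a mean of 0.03 ± 0.58, lowest on array 3, and GCN2 had −0.23, −0.096, −0.27 and −0.33, all below 0, a mean of −0.23 ± 0.10. These are transcript ratios, and Gcn4 is controlled mainly by translation. BAS1, an activator of histidine and purine genes, had −0.23 ± 0.12, and CBF1 had −0.41, 1.02 and −0.84 on arrays 2 to 4. Of 21 further genes of amino acid synthesis 15 were tested, with 7 means above 0, 8 below and a median of −0.03. Among them the serine hydroxymethyltransferase SHM1 had 0.31 ± 0.27 and the glutamate synthase GLT1 −0.27 ± 0.24. With 3 values, GCV1 of the glycine cleavage system had −0.46 ± 0.43 and GCV2 −0.33 ± 0.28. Of 11 further sulfur genes 5 were tested, with 2 means above 0, 3 below and a median of −0.17; with rows of 3 values added there were 4 above and 3 below, and the median turned to 0.085. The largest tested means in size were those of MUP1 (0.32 ± 0.40), the cysteine transporter gene YCT1 (−0.27 ± 0.45) and the permease gene MMP1 (−0.20 ± 0.24).

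Genes of amino acid breakdown and uptake did not pass. CAR2, the ornithine aminotransferase of arginine breakdown, had −0.90, −0.28, −0.68 and −0.43, all below 0, a mean of −0.57 ± 0.28 (adjusted p = 0.144). CAR1, arginase, had −0.10 ± 0.24, and CHA1, which deaminates serine and threonine, −0.29 ± 0.32. The 3 tested genes of the 6 in the breakdown list had means below 0, as had 59.4% of all tested rows. With 3 values, PUT2 of proline breakdown had 0.11, 0.12 and 0.14 and UGA1 of GABA breakdown a mean of 0.01 ± 0.11, so the list had no common direction. Of the 12 permease and sensor genes 8 were tested, 4 above and 4 below 0, with a median of −0.01. TAT1, a permease for tyrosine and other amino acids, had −0.29, −0.83, −0.015 and −0.46, a mean of −0.40 ± 0.34 (adjusted p = 0.317). BAP2, for branched-chain amino acids, had 0.26 ± 0.51 and the general permease gene GAP1 0.11 ± 0.57 (n = 3 arrays). DIP5, for acidic amino acids, had −0.25 ± 0.39 on 3 arrays. To complete routes and pairs, the following were named after their values were seen: ARG1, ARO1, ARO3, ARO4, ARO9, ARO10, LEU9, LYS1, LYS5, LYS21, MET3, MET5, MET8, MET10, MET12, MET13, MET16, SAM1, SAM4, SER3, SAH1, GLT1, CAR1, UGA1 and GAP1.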

How the data were processed

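Per row and array, the deposited table holds the log2 ratio of the 2 channels, normalized by the authors. The steps from image to ratio, and why cells are blank, are not stated in the labels; no spot intensities were used. Base 2 was checked on the table: with arrays 2 and 4 multiplied by −1, all 9281 values for ratios under 1 were base-2 logarithms of a 4-decimal linear ratio, where 56.5% would be by chance. Values were kept as deposited (column medians −0.061, 0.016, −0.083 and −0.025). Arrays 1 to 4 held 2794, 4162, 5322 and 5127 yeast rows and 60, 74, 86 and 84 of the set; 2 control rows were left out. The number of arrays limits the precision. Of 6207 rows, 5654 took symbols from RefSeq R64, and all 94 symbols that match the rule were found. Coordinates are not printed, because the sources name no genome build, and promoter sequences and motifs were not analysed here. The values of 1 gene of the set are not reported here.

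Arrays of 1 culture are technical swaps, so the replicates are 2 cultures. For both possible pairings the pair means were tested against 0 with limma 3.58.1 (R 4.3.3), the larger p kept and adjusted over 2715 rows. The procedure was run on simulated data with noise independent between arrays and changes larger than any mean of the set. That run cannot speak to shared dye or culture effects, or to changes of the sizes seen here. Tables used Python 3.11.15 and pandas 2.3.3. SDs are over arrays, intervals are limma's 95% intervals on culture means for the pairing with the larger p, before any adjustment. The fit shares variance between genes, so the width of an interval need not follow a gene's SD. Prefixes and lists were described by counts and medians, with no test.

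Named genes were the 3 largest means in size of each prefix, means of at least 0.5 with 1 sign, genes with 1 array apart, marker genes and regulators; for lists outside the rule, the 3 largest of each and GCN4. Genes added to complete a route or pair were named after their values were seen. The genes and lists were chosen with earlier results of these data known. Alternatives covered pairing, variance model, centring, scale, rows, dye and single arrays.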

Additional observations from a re-analysis of the deposited data

Results flagged for a closer look

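Among the 60 genes with 4 values, 5 had a single array that stood apart from the rest; by chance about 1 in 20 genes would, or 3. LYS2 read 0.40 on array 3, against −0.37 to −0.32 on the others. TRP5 read 1.32 on array 3, against 0.10 to 0.31. ARG4 read −0.0504 on array 2, against 0.83 to 1.00. SAM35 read 0.37 on array 2, against −0.46 to −0.39. MET14 read 0.65 on array 2, against 0.0023 to 0.10. Each of the 5 lay on array 2 or array 3. Spot intensities were not used, and the part of single spots in these values was not tested.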

How the results depend on the processing

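The 2 cultures and the unknown pairing of arrays limit every call. All tested rows gave 60 calls, and between 51 and 80 with a robust variance model, pairs 1+2 and 3+4, centred arrays, equal scale, rows with 3 or 4 values, and the Cy5-treated arrays alone. They gave 277 with arrays 1+4 and 3+2 as pairs, 97 with the 4 arrays as separate values, 119 with a dye term, 141 on the Cy3-treated arrays alone, and 22 (without array 2) to 129 (without array 3) when 1 array was left out. Of the 60 tested genes of the set, 0 were called in the main fit. Pairs 1+4 and 3+2 called 3 (MET6, ARG4 and TRP5), against 10.2% of all tested rows, and the intervals of these 3 had the same width there. The Cy3-treated arrays called 2 (MET6 and ARG4), against 5.19%. The dye term, on 4 arrays as separate values, called 1 (MET6), against 4.38%. Without 1 array 0 to 1 were called, the 1 being LEU1 without array 3, where 4.75% of all tested rows were called. In these fits 1 culture mean was a single array. The lowest adjusted p of MET6 without 1 array was 0.0509 (array 4), and the highest 0.333 (array 2).

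The median of the set stayed between 0.0082 (Cy3-treated arrays) and 0.11 (equal scale). The ARG median moved from 0.34 to 0.013 with ARG8, a row of 3 values, and the HIS median from 0.046 to −0.13 on the Cy3-treated arrays. Without 1 array the HIS median ranged from −0.013 (array 3) to 0.11 (array 2) and the SER median from −0.040 (array 1) to 0.13 (array 3). The other prefix medians moved by less than the SD of their array medians. Centring shifted the median of all tested rows by 0.034. No named gene that was called under an alternative had the opposite sign there. Each ratio already pairs the treated and untreated parts of a culture, so no further block was fitted.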
